A study of Mus musculus with 8 samples.

Results

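Foxm1 and 9 genes of the G2/M programme that are known targets of the FOXM1 protein were followed in tumor-associated macrophages (TAMs) of mice given thiostrepton or its vehicle. The 10 genes were picked by name (Foxm1, Ccnb1, Ccnb2, Plk1, Aurka, Aurkb, Cdc25b, Cdc25c, Cenpf and Birc5), and all 10 were found among the 23413 genes counted in the series. FOXM1 is a forkhead transcription factor made by dividing cells. It is recruited late in the cell cycle by B-MYB and the MuvB complex to promoters that carry a cell cycle homology region, and there it helps to switch on genes needed to enter and complete mitosis. Macrophages in tumors come largely from blood monocytes but can also divide in place. Thiostrepton is a thiopeptide antibiotic that is also used as an inhibitor of FOXM1 and of the proteasome.

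All 8 mice were male C57BL/6 mice, 8 to 10 weeks old at inoculation, and carried a subcutaneous tumor of B16F10, a mouse melanoma cell line. DMSO, the vehicle, was given to 2 mice by a route that is not stated. Thiostrepton was given by intraperitoneal (I.P.) injection to 4 mice, at a dose not named for these animals, and by paratumor subcutaneous (S.C.) injection at 20 mg/kg to 2 mice, which the labels call IS. Dosing was on days 6 and 12. On day 18 the TAMs were sorted as CD45+, F4/80+ and CD11b+ cells without Gr-1, and each mouse gave 1 RNA library. The paper's I.P. tumor experiment used different doses, each higher than 20 mg/kg, and which of them these mice had is not stated. Whether the 4 I.P. mice shared a dose is therefore not known, and route and dose cannot be told apart.

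The libraries held 14127506 to 17577466 counts on genes, and levels are given as CPM, the counts of a gene scaled to the library total, after TMM scaling for differences in library make-up. A floor of 3 counts was 0.168 to 0.217 CPM, which covers counting error only, and the 10 genes had between 86 and 3387 counts in every library, so depth did not limit their detection. All 12 macrophage markers, among them Adgre1 (F4/80), Itgam (CD11b) and Csf1r, were counted in every library, with a summed level of 13132 to 20152 CPM. The summed level of 10 melanocyte markers was 488 to 1825 CPM in the DMSO and I.P. mice, 3071 CPM in S.C. mouse 1 and 751 CPM in S.C. mouse 2, with 1 marker at 0 in I.P. mouse 1 and in S.C. mouse 2. The summed level of 11 neutrophil markers, 0 to 5 of them at 0, was 136 to 195 CPM in the DMSO and I.P. mice and 288 and 522 CPM in the S.C. mice. Monocyte and dendritic cell markers (8 genes, 0 to 3 of them at 0) summed to 73.5 and 86.7 CPM in the DMSO mice. Their sum was 9.73 to 29.6 CPM in the I.P. mice and 96.5 and 125 CPM in the S.C. mice. Most of the sum in the DMSO mice came from 1 gene, Ccr2, so the lower I.P. sum does not stand for the whole list. Ccr2, the monocyte chemokine receptor gene, was at 60.1 and 79.6 CPM in the DMSO mice and 59.5 and 76.1 CPM in the S.C. mice. In the I.P. mice it was at 7.34 to 20.7 CPM, with a log2 fold change of -2.39 ± 0.36 against DMSO (edgeR adjusted p = 0.751). Of the 5 marker genes on this list tested by I.P., 2 estimates were below 0 and 3 above, with a median of 0.02. T and NK cell markers (13 genes, 1 to 8 of them at 0) summed to 4.49 to 29.6 CPM in the DMSO and I.P. mice and to 62.8 and 37.5 CPM in the S.C. mice. B cell markers (6 genes, 2 to 5 at 0) summed to 9.06 to 20.6 CPM in the DMSO and I.P. mice and to 29.2 and 25.3 CPM in the S.C. mice. Fibroblast and endothelial markers (8 genes, 2 to 7 at 0) were at 9.6 CPM or less in sum in every mouse. The part of these other cells in the results below was not tested. A lower level in sorted cells can come from fewer dividing cells or from less RNA per cell, and these cannot be told apart here.

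Many G2/M promoters carry the cell cycle homology region, TTTGAA, downstream of one or more CCAAT boxes, the binding site of NF-Y. Both were searched for on both strands of the promoters listed by RefSeq (GRCm38.p6, 250 bases before to 50 after the start). Of the 10 genes, 7 had an entry (Foxm1, Aurkb and Cdc25c had none). TTTGAA and CCAAT both stood in 4 of the 7, those of Ccnb2, Plk1, Aurka and Cenpf, against 6.95% of all 32851 promoters. CCAAT stood in 6 of the 7 (37.4% of all promoters), and GTAAACA or ATAAACA, 2 forms of the forkhead motif, stood in 0 of the 7 (7.97% of all). Of 64 other G2/M genes, 53 had an entry and 33 of these (62.3%) held both TTTGAA and CCAAT. Of the replication genes 31 had an entry, and 2 of these (6.45%) held both. In these lists a gene counted when any of its promoters held both, whereas the share of all is per promoter. A match is only a run of letters and no measurement of binding. The sequences are shown because they carry the arrangement that these promoters share, with CCAAT before the start and TTTGAA just after it. Each line is 5′ to 3′ on the strand of the gene, with the motifs in capitals.

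Ccnb2, chr9:70421555-70421694 (minus strand), the 140 bases before the start: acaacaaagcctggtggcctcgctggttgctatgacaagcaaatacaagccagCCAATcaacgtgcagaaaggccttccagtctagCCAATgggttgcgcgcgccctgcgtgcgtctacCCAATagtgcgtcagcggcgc
Ccnb2, chr9:70421525-70421554, from base 1 to base 30 after the start: ggtaTTTGAAtcgcggaccgggcggtggac
Plk1, chr7:122159295-122159434 (plus strand), the 140 bases before the start: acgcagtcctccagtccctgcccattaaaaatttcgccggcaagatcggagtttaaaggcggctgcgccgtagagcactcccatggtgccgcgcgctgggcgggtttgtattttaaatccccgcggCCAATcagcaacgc
Plk1, chr7:122159453-122159482, from base 19 to base 48 after the start: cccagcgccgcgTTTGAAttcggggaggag
Aurka, chr2:172370571-172370710 (minus strand), the 140 bases before the start: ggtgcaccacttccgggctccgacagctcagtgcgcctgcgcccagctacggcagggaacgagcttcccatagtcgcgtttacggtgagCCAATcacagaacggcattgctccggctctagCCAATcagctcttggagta
Aurka, chr2:172370521-172370550, from base 21 to base 50 after the start: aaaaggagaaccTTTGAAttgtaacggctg
Cenpf, chr1:189688087-189688226 (minus strand), the 140 bases before the start: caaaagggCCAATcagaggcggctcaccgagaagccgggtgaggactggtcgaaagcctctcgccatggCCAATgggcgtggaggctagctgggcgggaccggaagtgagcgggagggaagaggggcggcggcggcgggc
Cenpf, chr1:189688057-189688086, from base 1 to base 30 after the start: agTTTGAAtcgctcgtgctggtcggggagg

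TTTGAA began at base 5 after the start in Ccnb2, 31 in Plk1, 33 in Aurka and 3 in Cenpf. A further TTTGAA of Ccnb2 lay at positions -167 to -162 relative to the start, outside the stretch shown. Ccnb2 carried 3 CCAAT boxes between positions -87 and -17, Aurka and Cenpf 2 each and Plk1 1. Ccnb1 had 2 CCAAT boxes and no TTTGAA in this window.

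Foxm1 (chr6:128362967-128376146, GENCODE vM21 on GRCm38, plus strand) was at 15.3 and 21.2 CPM in the DMSO mice. It was at 7.27, 14.0, 14.8 and 15.8 CPM in I.P. mice 1 to 4 and at 13.3 and 7.08 CPM in S.C. mice 1 and 2. Both S.C. mice lay below both DMSO mice, and 3 of the 4 I.P. mice did, while I.P. mouse 4 lay between the DMSO mice. In the annotation it shares 691 bases with Tex52 and 644 with Gm44596 on the same strand, genes with no row of their own in the counts. The group means were 18.3 ± 4.19 (SD, n = 2), 13.0 ± 3.86 (n = 4) and 10.2 ± 4.41 CPM (n = 2). By edgeR's quasi-likelihood test the log2 fold change was -0.50 ± 0.35 (SE) by I.P. (adjusted p = 0.98) and -0.84 ± 0.56 by S.C. (adjusted p = 1.0), so neither difference passed. The S.C. mice against the I.P. mice gave -0.31 ± 0.50 (adjusted p = 0.917). Two-sided exact permutation tests of a single gene could not go below p = 0.133 with 4 mice against 2, or 0.333 with 2 against 2.

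**Figure D1:**
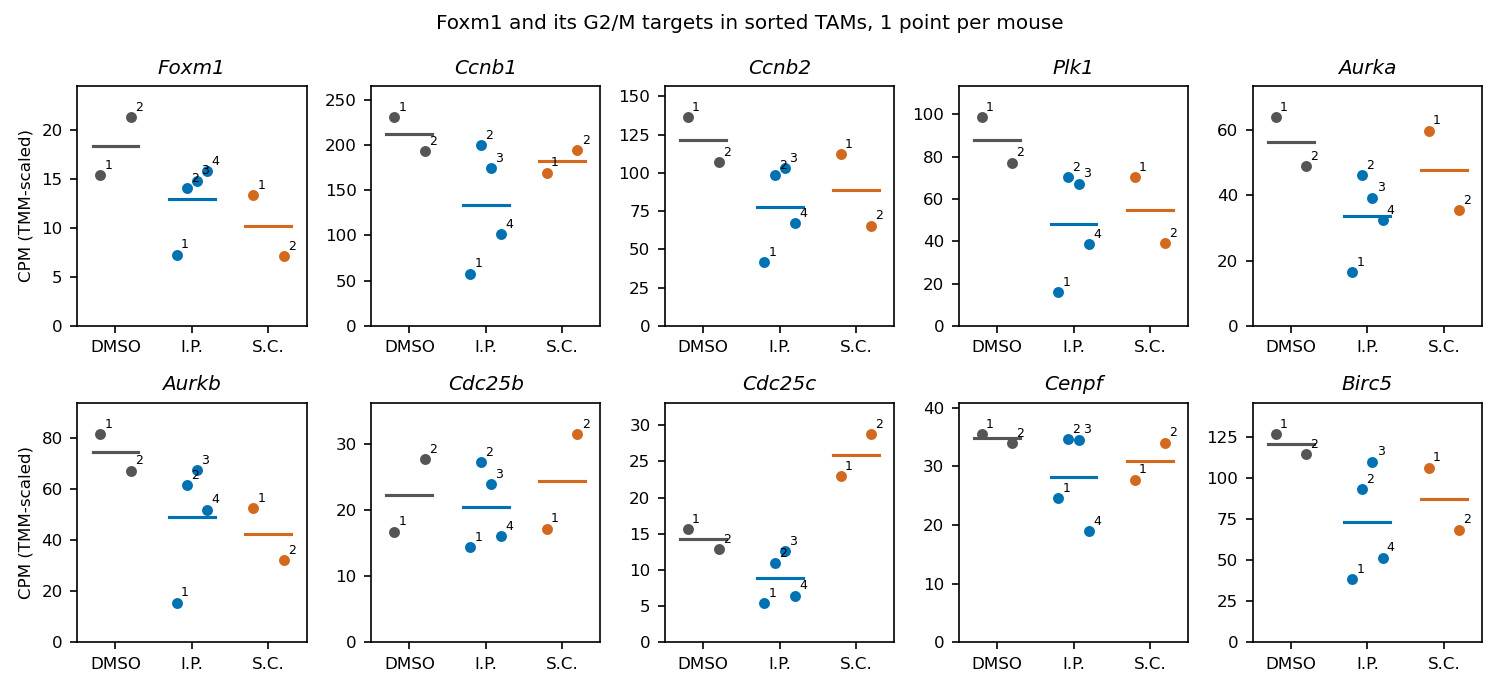
Level of Foxm1 and its 9 targets, in TMM-scaled CPM on a linear axis from 0, with 1 point per mouse numbered as in the labels and a line at the group mean. I.P. mouse 1 is the lowest of the 8 mice for 8 of the 10 genes, and Cdc25c is the gene whose S.C. mice both lie above all other mice.

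Ccnb1 encodes cyclin B1, the partner of CDK1 that drives entry into mitosis. It was at 231 and 193 CPM in the DMSO mice, at 57.8, 199, 174 and 101 CPM in I.P. mice 1 to 4, and at 170 and 194 CPM in the S.C. mice. I.P. mice 1 and 4 were far below the DMSO mice, while I.P. mouse 2 and S.C. mouse 2 were just above the lower one. Against DMSO, edgeR gave log2 fold changes of -0.67 ± 0.44 (I.P.) and -0.22 ± 0.30 (S.C.).

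Ccnb2 encodes cyclin B2, a close relative of cyclin B1. It was at 136 and 107 CPM in the DMSO mice, at 41.7, 98.7, 103 and 67.3 CPM in the I.P. mice, and at 112 and 65.4 CPM in the S.C. mice. The 4 I.P. mice lay below both DMSO mice, 2 of them narrowly, and the S.C. mice fell on either side of the lower DMSO mouse. The estimates, on the log2 scale, were -0.65 ± 0.36 for I.P. and -0.45 ± 0.39 for S.C.

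Cdc25b and Cdc25c encode the phosphatases that remove the inhibitory phosphates from CDK1. Cdc25b was at 16.8 and 27.7 CPM in the DMSO mice, at 14.4, 27.3, 23.9 and 16.1 CPM in the I.P. mice, and at 17.2 and 31.6 CPM in the S.C. mice. The 3 groups overlapped, and the log2 fold changes were the closest to 0 of the 10 genes in both comparisons with DMSO, at -0.12 ± 0.36 (I.P.) and 0.13 ± 0.51 (S.C.). The gene shares 334 bases with Spef1 on the other strand, and whether the counting used strand is not stated.

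Cdc25c lay on opposite sides of the DMSO mice in the 2 treated groups. It was at 15.7 and 12.9 CPM in the DMSO mice, at 5.44, 10.9, 12.7 and 6.48 CPM in the I.P. mice, and at 23.0 and 28.8 CPM in the S.C. mice. All I.P. mice were below and both S.C. mice above the DMSO mice, so no group overlapped another. The gap to the I.P. mice was narrow, with I.P. mouse 3 at 12.7 CPM (226 counts) and DMSO mouse 2 at 12.9 CPM (223 counts). Of all genes tested, 6.88% had every I.P. mouse below both DMSO mice, and 16% had both S.C. mice above them. The share of genes with both was not counted. Against DMSO the log2 estimate was -0.68 ± 0.40 by I.P. (adjusted p = 0.98) and 0.86 ± 0.43 by S.C. (adjusted p = 0.997, edgeR), and neither passed. Against each other, the S.C. mice were 1.57 ± 0.45 higher on the log2 scale than the I.P. mice. This met the study's criterion of P under 0.05 with at least a 2-fold change (unadjusted P = 0.00745), but not an adjusted threshold (edgeR adjusted p = 0.374). Leaving out any of the 6 mice kept this call, with log2 fold changes of 1.40 to 1.77. The gene lies opposite Gm3550 over 1656 bases, a gene with no row of its own in the counts, so reads from it could not be told apart if strand was not used.

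**Figure D2:**
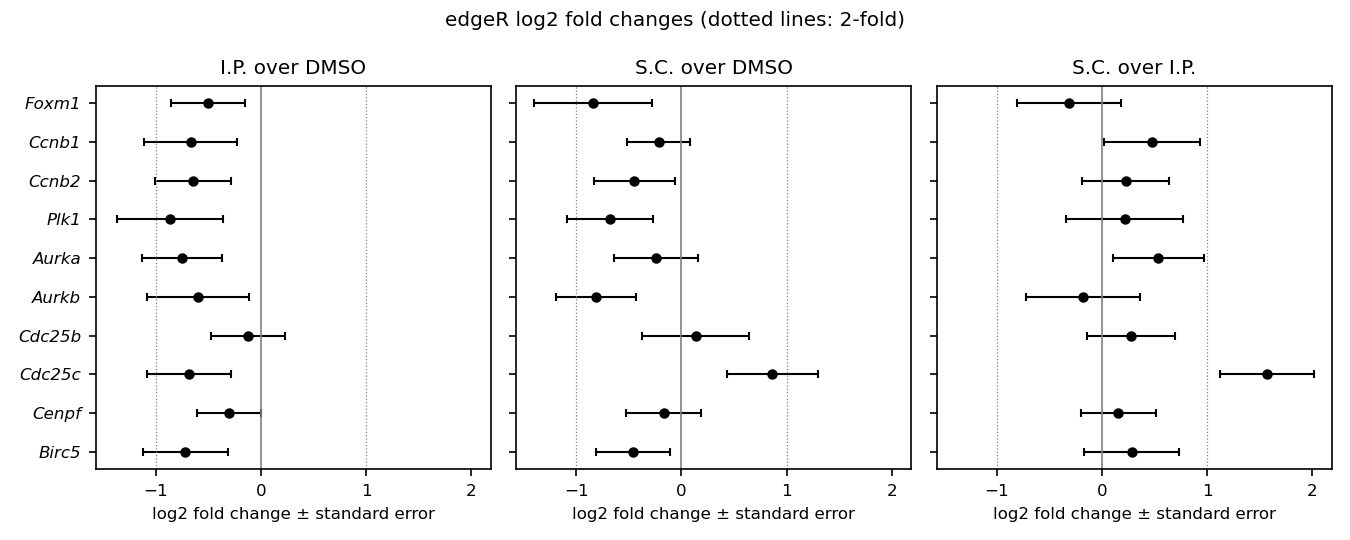
Log2 fold change of each gene (points) with its standard error (bars), from edgeR's quasi-likelihood fit, for the 3 pairs of groups. All 10 points of I.P. over DMSO are below 0, and Cdc25c in S.C. over I.P., at 1.57, is the point beyond 2-fold.

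Plk1 encodes the Polo-like kinase of mitosis, which activates CDC25 phosphatases and also FOXM1 itself. It was at 98.7 and 77.2 CPM in the DMSO mice, at 16.1, 70.5, 67.2 and 38.8 CPM in the I.P. mice, and at 70.4 and 39.1 CPM in the S.C. mice. Every treated mouse lay below both DMSO mice. Its log2 fold change, the lowest of the 10 for I.P. mice, was -0.87 ± 0.50 there and -0.68 ± 0.41 in the S.C. mice (edgeR adjusted p = 0.98 and 1.0).

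Aurka encodes Aurora A, the kinase of centrosomes and spindle poles. It was at 63.9 and 49.0 CPM in the DMSO mice, at 16.5, 46.1, 39.3 and 32.5 CPM in the I.P. mice, and at 59.8 and 35.5 CPM in the S.C. mice. The I.P. mice were all below the DMSO mice, and the 2 S.C. mice were on either side of the lower DMSO mouse. By I.P. the log2 fold change of -0.75 ± 0.38 had the smallest unadjusted P of the 10 genes, 0.0806, in edgeR's test (adjusted p = 0.98), and by S.C. it was -0.24 ± 0.40.

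Aurkb encodes Aurora B, the kinase of the chromosomal passenger complex. It was at 81.7 and 67.3 CPM in the DMSO mice, at 15.5, 61.7, 67.6 and 52.0 CPM in the I.P. mice, and at 52.5 and 32.3 CPM in the S.C. mice. Both S.C. mice lay below both DMSO mice, and I.P. mouse 1 was 4.35-fold below the highest I.P. mouse. Log2 fold changes were -0.60 ± 0.49 for I.P. and -0.81 ± 0.38 for S.C. (edgeR adjusted p = 0.98 for both).

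Birc5 encodes survivin, which binds Aurora B in the same complex and also blocks caspases. It was at 127 and 114 CPM in the DMSO mice, at 38.5, 92.9, 110 and 51.4 CPM in the I.P. mice, and at 106 and 68.4 CPM in the S.C. mice. All 6 treated mice were below both DMSO mice. The fitted differences were -0.72 ± 0.41 (I.P.) and -0.46 ± 0.35 (S.C.) on the log2 scale.

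Cenpf encodes a large protein of the outer kinetochore. It was at 35.5 and 34.0 CPM in the DMSO mice, at 24.6, 34.7, 34.6 and 19.0 CPM in the I.P. mice, and at 27.7 and 34.0 CPM in the S.C. mice. I.P. mice 2 and 3 and S.C. mouse 2 sat at the level of the DMSO mice, and the other 3 treated mice were lower. Both estimates were within their standard error or close to it, at -0.30 ± 0.31 (I.P.) and -0.17 ± 0.36 (S.C.) on the log2 scale.

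By I.P., then, all 10 estimates were below 0 with a median of -0.66, against a median of 0.02 over the 12174 genes tested, and 0 of the 10 met the criterion (0.468% of all genes did in the lower direction and 1.53% in the higher). The number with an unadjusted P under 0.05 was 0 by edgeR's quasi-likelihood test, 0 by its likelihood ratio test and 0 by DESeq2. By the quasi-likelihood test, 107 of all 12174 genes were lower at that P and 311 were higher. In 5 of the 10 genes all I.P. mice lay below both DMSO mice, which was so for 6.88% of all genes, and in 0 did all lie above, against 7.29%. I.P. mouse 1 carried much of this: it lay below both DMSO mice in 10 of the 10 genes, and without it the median was -0.43. I.P. mice 2 and 3 lay below both DMSO mice in 7 genes each and I.P. mouse 4 in 9. All I.P. mice also lay below both DMSO mice in 17 of 64 other G2/M genes and in 10 of 38 replication genes. All lay above in 0 and 1 of these.

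By S.C., 8 of the 10 estimates were below 0 with a median of -0.35, against 0.02 over 11680 genes, and 0 met the criterion (2.77% of all genes did in the lower and 2.29% in the higher direction). The number with an unadjusted P under 0.05 was again 0 by both edgeR tests and by DESeq2. By the quasi-likelihood test, 340 of all 11680 genes were lower at that P and 292 were higher. Both S.C. mice lay below both DMSO mice in Foxm1, Plk1, Aurkb and Birc5, 4 of the 10 against 18.5% of all genes, and above them in Cdc25c, 1 of the 10 against 16%. They also lay below in 26 of 64 other G2/M genes and 17 of 38 replication genes, and above in 5 and 3. The 2 S.C. mice were not alike. Foxm1, Ccnb2, Plk1, Aurka, Aurkb and Birc5, 6 of the 10, were 1.55- to 1.88-fold lower in S.C. mouse 2 than in S.C. mouse 1, while Ccnb1, Cdc25b, Cdc25c and Cenpf were higher in it. S.C. mouse 1 had the highest summed level of melanocyte markers of the 8 libraries, as given above.

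Without S.C. mouse 1, Foxm1 (log2 fold change -1.38 ± 0.41), Plk1 (-1.18 ± 0.35), Aurkb (-1.21 ± 0.35) and Cdc25c (1.01 ± 0.33) met the criterion, and the median was -0.75. In that fit S.C. mouse 2 alone stood for its group and was assumed to vary as the 2 DMSO mice did, and 24.5% of all genes tested met the criterion. Without S.C. mouse 2, 27.8% of all genes did and 0 of the 10.

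Between the routes, 8 of the 10 estimates were higher in the S.C. mice, with a median of 0.25 against 0.02 over 12206 genes. This shift depended on S.C. mouse 1: without it the median was 0.0068 and 5 of the 10 estimates were lower. Without S.C. mouse 2 the median was 0.47. Cdc25c, described above, was the 1 gene of the 10 that met the criterion in the higher direction, against 2.41% of all genes, and 0 met it in the lower, against 4.64%. It was also the 1 gene in which both S.C. mice lay above all I.P. mice (7.46% of all genes), and in 0 did both lie below (11.1%). The next largest estimates were those of Aurka, at 0.54 ± 0.43, and Ccnb1, at 0.48 ± 0.45.

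Levels of different genes were set side by side per kilobase of exon, with all exons of each gene in GENCODE vM21 joined. The annotation used for counting is not known, so the order below depends on that length, 1531 bases for Ccnb2 and 4217 for Ccnb1. Before division by length, Ccnb1 was above Ccnb2 in the DMSO mice, at means of 212 and 122 CPM. Per kilobase, Ccnb2 was the highest of the 10 in the DMSO mice, at a mean of 79.5 CPM per kb. It was followed by Ccnb1 (50.2), Plk1 (40.0), Birc5 (35.4), Aurkb (25.3) and Aurka (22.3). Cdc25b (5.96), Foxm1 (3.18), Cdc25c (2.90) and Cenpf (2.25) formed a low group. Within this order the DMSO mice did not separate Plk1 from Birc5, Aurkb from Aurka, or Foxm1 from Cdc25c. In the I.P. mice Ccnb2 (50.7) and Ccnb1 (31.6) again led, but only Cdc25b and Foxm1 were neighbours whose mice did not overlap. In the S.C. mice Foxm1 was the lowest of the 10 at 1.77 CPM per kb, not separated from Cenpf (2.0), while Cdc25c stood at 5.27.

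The 10 genes were next set against 64 other genes of the G2/M programme. By I.P., 59 of the 64 estimates were below 0, with a median log2 fold change of -0.59, and 0 met the criterion. The 3 with the smallest P were Arhgap11a (-0.47 ± 0.24), Cdca8 (-0.69 ± 0.35) and Cenpa (-0.54 ± 0.29), a cytokinesis regulator, a passenger complex subunit and the centromeric histone. By S.C., 46 of 64 were below 0 with a median of -0.31, and 3 (4.69%) met the criterion, all lower, against 2.77% of all genes tested.

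These 3 were Nusap1 (-1.46 ± 0.37), Spag5 (-1.72 ± 0.49) and Sgol1 (-1.73 ± 0.51), which bind spindle microtubules or protect centromeric cohesion (edgeR adjusted p = 0.747 for each). Nusap1 was at 43.6 and 53.0 CPM in the DMSO mice, at 4.93, 55.0, 46.6 and 30.2 CPM in the I.P. mice, and at 16.1 and 19.1 CPM in the S.C. mice. Both S.C. mice were thus below both DMSO mice, as were I.P. mice 1 and 4, while I.P. mice 2 and 3 were not. Between the routes 1 of the 64 (1.56%, against 2.41% of all genes), the spindle protein gene Ckap2, met the criterion, higher in the S.C. mice at 17.0 and 32.0 CPM than in the I.P. mice at 6.32, 13.8, 14.8 and 5.28 CPM (log2 fold change 1.30 ± 0.54, adjusted p = 0.552).

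Mean log2 CPM over each list showed the same mice standing apart. Relative to the mean of the DMSO mice, the 10 genes were at -1.52 in I.P. mouse 1, -0.20 in I.P. mice 2 and 3, and -0.82 in I.P. mouse 4. The 64 other G2/M genes were at -2.03, -0.13, -0.14 and -0.76, and 38 replication genes at -1.96, -0.12, -0.14 and -0.53 in the same order. I.P. mouse 1 was thus lowest and I.P. mouse 4 next on all 3 lists, and I.P. mice 2 and 3 were close to the DMSO mice. In S.C. mice 1 and 2 the 10 genes were at -0.17 and -0.46, the other G2/M genes at -0.72 and -0.26, and the replication genes at -0.41 and -0.42. The order of the 2 S.C. mice therefore differed between the 10 genes and the other G2/M genes. I.P. mouse 1 had the highest summed level of macrophage markers, 20152 CPM, a sum made up mostly of the C1q genes and Cd68. Adgre1, at 316 CPM, and Ptprc, at 152 CPM, were at their lowest of all mice in it. Its melanocyte sum was 551 CPM, within the range of the DMSO and I.P. mice.

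**Figure D3:**
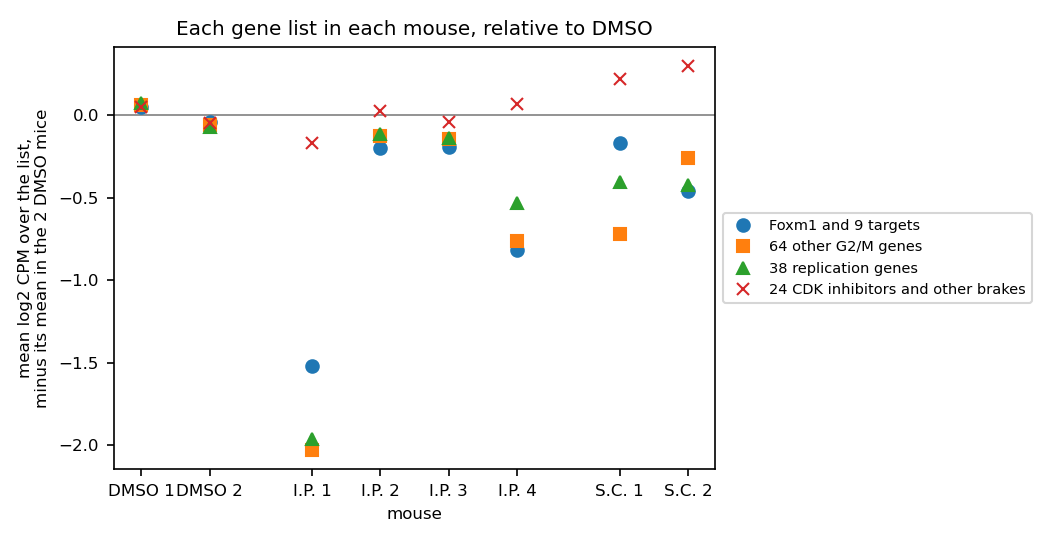
Mean log2 CPM of 4 gene lists in each mouse, minus the mean of the same list in the 2 DMSO mice. I.P. mouse 1 lies between -2.03 and -1.52 for the 3 lists of proliferation genes and at -0.17 for the list of cell cycle brakes. The last is a mean over genes that moved in both directions in that mouse.

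Expressed relative to the 64 other G2/M genes of the same mouse, the 10 genes did not keep fixed proportions. Their mean exceeded that of the 64 by 0.46 and 0.49 in the DMSO mice on the log2 scale, by 0.98 in I.P. mouse 1, by 0.41 to 0.42 in the other I.P. mice, and by 1.02 and 0.28 in the S.C. mice. Set against the DMSO mice on this relative scale, Cenpf was at 1.53 and Cdc25b at 1.45 in I.P. mouse 1. In CPM both lay below both DMSO mice there, at 24.6 and 14.4 CPM. The mean of the 64 takes in genes at or near the floor in that mouse, such as Kifc1 (0.0632 CPM) and Melk (0.379 CPM). How far these lower that mean was not tested. On the relative scale, Cdc25c was at 1.41 and 1.28 in the S.C. mice and between -0.36 and 0.66 in the I.P. mice. Foxm1 was at -1.07, Aurkb at -0.93 and Plk1 at -0.89 in S.C. mouse 2, against 0.28, 0.22 and 0.41 in S.C. mouse 1. Ccnb1, at 0.40 and 0.15, and Cenpf, at 0.39 and 0.23, also lay above both DMSO mice in both S.C. mice, by less than Cdc25c, and Cdc25b was at 0.40 and 0.81 there, against -0.42 and 0.42 in the DMSO mice.

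**Figure D4:**
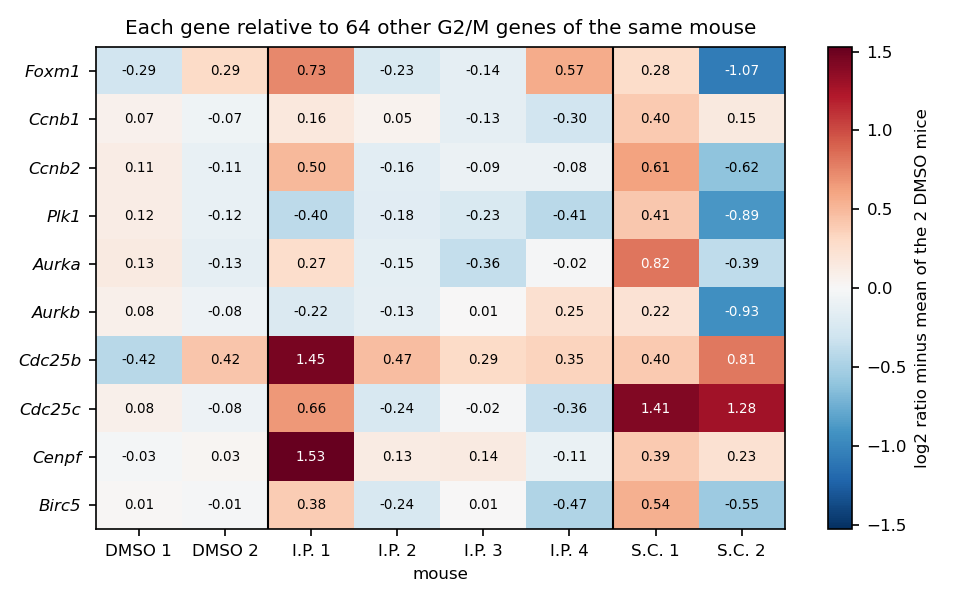
Log2 level of each gene relative to the mean of 64 other G2/M genes in the same mouse, minus its mean in the 2 DMSO mice, with the value printed in each cell (red higher, blue lower). Cdc25c is at 1.41 and 1.28 in the S.C. mice, and Cenpf and Cdc25b are at 1.53 and 1.45 in I.P. mouse 1. In CPM, Cenpf and Cdc25b lie below both DMSO mice in that mouse.

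Regulators of the FOXM1 programme or of the cell cycle were a list of 17 genes. Of these, Ccna2 and Cdk1 are also among the 64 other G2/M genes. The criterion was met by 0 of the 17 in any of the 3 comparisons, against 0.468% to 4.64% of all genes in each direction. By S.C., 340 of all 11680 genes tested were lower at an unadjusted P under 0.05 in edgeR's test, and 292 were higher. Of the 17, 0 had such a P by I.P. and 1 by S.C. That gene, E2f1, whose product turns on cell cycle genes before S phase, was at 105 and 111 CPM in the DMSO mice, at 86.2, 105, 96.0 and 97.1 CPM in the I.P. mice, and at 60.5 and 49.6 CPM in the S.C. mice. Its S.C. mice lay below all others, with a log2 fold change of -0.97 ± 0.31 against DMSO (edgeR adjusted p = 0.793) and -0.77 ± 0.26 against the I.P. mice (adjusted p = 0.458). Mybl2 encodes B-MYB, which brings FOXM1 to its promoters. It was at 19.4 and 23.1 CPM in the DMSO mice, at 3.29, 16.6, 17.9 and 15.1 CPM in the I.P. mice, and at 13.1 and 6.07 CPM in the S.C. mice. All treated mice were below both DMSO mice, and log2 fold changes were -0.69 ± 0.55 (I.P.) and -1.14 ± 0.57 (S.C.). The other genes with the smallest P were Lin37 (0.40 ± 0.33) and Cdk2 (-0.41 ± 0.36) by I.P., Ccna2, which encodes cyclin A2 (-0.69 ± 0.36), by S.C., and Cdk2 (0.90 ± 0.39) and Lin9 (0.95 ± 0.58) between the routes.

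Brakes of the cell cycle, a list of CDK inhibitors, RB family, GADD45, BTG and related genes, had no common direction. In I.P. mouse 1, Cdkn1a was at 642 CPM, against 253 to 265 CPM in the DMSO mice. In the same mouse Rbl1 was at 4.74 CPM, against 35.0 to 40.5 CPM. Over the 22 of 24 tested by I.P. the median estimate was -0.02, and over the 23 tested by S.C. it was 0.12. By I.P. 1 met the criterion, Gadd45b, and by S.C. 3 did, Gadd45b, Btg2 and Gadd45g, all higher, the last of which was named after its values were seen (1.14 ± 0.41). That was 4.55% and 13.0% of the brakes tested, against 1.53% and 2.29% of all genes called higher in the I.P. and in the S.C. mice. Gadd45b, a stress-induced inhibitor of CDK1, was at 32.1 and 56.5 CPM in the DMSO mice, at 325, 71.2, 127 and 109 CPM in the I.P. mice, and at 115 and 178 CPM in the S.C. mice. All treated mice were above both DMSO mice, and I.P. mouse 1, the lowest for most of the 10 genes, was the highest here. The log2 fold change was 1.83 ± 0.61 by I.P. (edgeR adjusted p = 0.98) and 1.73 ± 0.43 by S.C. (adjusted p = 0.747).

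Btg2, an antiproliferative early response gene, was at 46.5 and 23.0 CPM in the DMSO mice, at 203, 25.2, 27.3 and 45.4 CPM in the I.P. mice, and at 95.6 and 215 CPM in the S.C. mice. Both S.C. mice were above both DMSO mice, and of the I.P. mice only I.P. mouse 1 was. The log2 fold change by S.C. was 2.16 ± 0.56 (edgeR adjusted p = 0.747). The others with the smallest P were Gadd45a (0.63 ± 0.25) and Rb1 (-0.75 ± 0.33) by I.P., and Btg1 by S.C. (0.92 ± 0.33). Between the routes 0 of 22 met the criterion, and Btg1 (0.96 ± 0.32), Wee1, the kinase that CDC25 phosphatases oppose (-1.01 ± 0.45), and Pkmyt1 (0.60 ± 0.41) had the smallest P.

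Of the 38 replication genes, 37 estimates were below 0 by I.P. (median -0.53) and 31 were by S.C. (median -0.27), and 0 met the criterion in either comparison. Those with the smallest P were Slbp (-0.53 ± 0.28), Fen1 (-0.58 ± 0.34) and Rpa2 (-0.55 ± 0.36) by I.P., and Ccne2 (-0.88 ± 0.44), Rrm1 (-0.76 ± 0.40) and Mcm6 (-0.69 ± 0.36) by S.C. Between the routes 1 met it (2.63%, against 2.41% of all genes), Orc1, the largest subunit of the origin recognition complex, which was higher in the S.C. mice (1.33 ± 0.56), with Slbp (0.74 ± 0.28) and Chaf1b (0.66 ± 0.38) also among the smallest P. None of the replication genes, other G2/M genes, regulators or brakes had an edgeR adjusted p under 0.05 in any comparison.

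Other forkhead genes, of which 2 are also on the list of brakes, gave mostly estimates above 0. Of 17 on the list, 11 were counted highly enough to be tested by I.P. and 10 by S.C., and 8 estimates were above 0 in each. By I.P. the smallest P belonged to Foxj2 (0.45 ± 0.31), Foxp4 (1.27 ± 1.24) and Foxk1 (0.45 ± 0.45), and by S.C. to Foxj3 (0.81 ± 0.50), Foxo1 (0.86 ± 0.59) and Foxp4 (1.39 ± 1.38). The number that met the criterion was 0 in all 3 comparisons. Between the routes, 652 of all 12206 genes tested were lower at an unadjusted P under 0.05 in edgeR's test, and 397 were higher. Of the forkhead genes 1, Foxj3, had such a P there (0.88 ± 0.33, higher in the S.C. mice). Next after it stood Foxp2, which had 0 to 13 counts in the I.P. mice and 0 in both S.C. mice and is given no fold here, and Foxo1 (0.67 ± 0.53).

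Over the 8 mice, log2 CPM of Foxm1 and of its 9 targets had a median Pearson r of 0.64, from -0.06 with Cdc25c to 0.85 with Aurkb. The mice share 3 treatment groups, and without I.P. mouse 1 the median was 0.33. All 45 pairs among the 10 genes had a median r of 0.65, and 0.53 without I.P. mouse 1. Of the 9324 genes that averaged 5 CPM or more, those most like Foxm1 over the 8 mice were Ppat (r = 0.97), which encodes the enzyme that commits PRPP to purine synthesis, Cep68 (0.97), a protein of the centrosome linker, R3hdm1 (0.96), 1600012H06Rik (0.95) and Cnpy4 (0.94). Mybl2 was the sixth in this order (0.94). Of the 9 targets, Aurkb was at place 100, Plk1 at 377, Ccnb2 at 407, Birc5 at 765 and Aurka at 786. Ccnb1 was at 1824, Cenpf at 4176, Cdc25b at 4532 and Cdc25c at 5428.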

How the data were processed

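RNA-seq counts of sorted TAMs from 8 mice were used, grouped by the source names in the labels. The authors deposited whole-number counts per gene symbol without normalization. The paper's methods name bowtie2 and RSEM on mm10, whereas the submitters' processing notes list TopHat2, edgeR and mm10, so the aligner is uncertain. The annotation and the use of strand are not given in the sources used here. Nothing beyond the mouse and library states that replicates are independent cohorts, so p-values measure the spread between these mice.

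Analysis was done in edgeR 4.0.16 under R 4.3.3. Genes were kept by filterByExpr (minimum count 10, minimum total 15), and scaled by TMM. Each comparison used a fit of its own groups and the quasi-likelihood test (two-sided), with Benjamini-Hochberg adjustment over all genes tested. A gene met the criterion, that of the study, at an unadjusted P under 0.05 with at least a 2-fold change. The standard error is the log2 fold change divided by the square root of F. Log2 CPM used a prior count of 2. The 10 genes and all lists were chosen with earlier results of these data known. Named genes were the 10, the 3 of each list with the smallest P in each comparison, and the 5 most correlated with Foxm1. Others, among them Gadd45g, Cdkn1a, Rbl1, Kifc1 and Melk, were named outside this rule as examples, for their values. Alternatives were DESeq2 1.42.0, the likelihood ratio test, other filters and scalings, all groups in 1 fit, a replicate block, and each mouse left out. The procedure was tested on simulated data. GENCODE vM21 held 93.0% of the symbols.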

Additional observations from a re-analysis of the deposited data

Results flagged for a closer look

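The excess of the 10 genes over the 64 other G2/M genes, in mean log2 CPM, was 0.98 in I.P. mouse 1 and 0.41 to 0.42 in I.P. mice 2, 3 and 4. The gap between I.P. mouse 1 and the nearest of the others was 0.971 of the whole range, above Dixon's critical value for 4 samples. Chance alone marks about 1 in 20 groups in this way, and 19 measures were examined in the I.P. mice. After the mean of the DMSO mice was subtracted from each gene's level relative to the other G2/M genes, Cenpf (1.53) and Cdc25b (1.45) were the highest of the 10 in that mouse. In CPM these genes lay below both DMSO mice there, and some of the 64 other genes were at or near the floor in that mouse.

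Cdc25c was lower than in both DMSO mice in all 4 I.P. mice and higher in both S.C. mice. I.P. mouse 3, at 12.7 CPM, was only narrowly below DMSO mouse 2, at 12.9 CPM. The comparison of the routes gave a log2 fold change of 1.57 (edgeR adjusted p = 0.374), so the difference rests on the directions of the mice and did not pass the adjusted test.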

How the results depend on the processing

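Under each alternative run for I.P. against DMSO, 0 of the 10 genes met the criterion, and the median log2 fold change was -0.83 to -0.43 with 1 mouse left out. For S.C. against DMSO the number was 0 under each alternative except without S.C. mouse 1, where it was 4 (range with 1 mouse left out 0 to 4), and the median was -0.75 to -0.23. Between the routes it was 1, Cdc25c, under each alternative. The median between the routes was 0.0068 to 0.47 with 1 mouse left out. The labels number the mice in each group, but same-numbered mice deviated together with r of -0.144 to 0.075 over genes, so the numbers were not taken to pair the mice. With same-numbered mice as a replicate block the number of calls was 0, 0 and 1 and the medians were -0.94 by I.P., -0.38 by S.C. and 0.46 between the routes. A block with the numbers crossed, chosen after seeing the data, gave 0 calls by S.C. with a median of -0.38. Scaling by library size moved the median of all genes by S.C. from 0.02 to -0.13 and that of the 10 genes to -0.49.

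Some genes that did not meet the criterion changed direction. By S.C. Cdc25b was at -0.028 with library size only, and between the routes Aurkb was at 0.40 with the block. With 1 mouse left out, Cdc25b ranged from -0.44 to 0.29 by I.P., from -0.40 to 0.53 by S.C. and from -0.22 to 0.64 between the routes. By S.C. Aurka ranged from -0.68 to 0.061. Between the routes the ranges were -0.85 to 0.073 for Foxm1, -0.23 to 0.56 for Ccnb2, -0.29 to 0.58 for Plk1, -0.59 to 0.13 for Aurkb, -0.084 to 0.57 for Birc5 and -0.0050 to 0.28 for Cenpf. The cause of these changes was not tested beyond the mouse left out.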
